A study of Gossypium hirsutum with 6 samples.

Results

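In most plant chromatin, peaks of H3K4me3 crowd together where genes crowd together. A smaller class of peaks stood alone: isolated H3K4me3 peaks of cotton leaves, with no other H3K4me3 peak for at least 50 kb to either side. These peaks were selected on spacing and on repetition, in peak lists of ChIP-seq (chromatin immunoprecipitation followed by sequencing). A peak of the H3K4me3 replicate 1 list on chromosomes A01 to A13 or D01 to D13 was a member if it overlapped the second H3K4me3 list by at least 1 bp and if the nearest other peak of the replicate 1 list lay 50000 bp or more away on both sides. There were 1349 such peaks among 36989 repeated H3K4me3 peaks, and among 69877 peaks of the replicate 1 list on the 26 chromosomes. The 35640 other repeated peaks served for comparison: 6675 of them had a gap of that size on one side only, and 28965 had closer peaks on both sides.

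The study profiled histone marks in leaves of 20-day-old plants of the cotton cultivar Gossypium hirsutum TM-1, grown without treatment, after digestion of nuclei with micrococcal nuclease. The 6 samples were 2 H3K4me3, 2 H3K27me3 and 2 input libraries, and the 4 peak lists of the antibody libraries were used here. All plants were of 1 line and 1 tissue, and the labels do not say whether the libraries of a mark came from separate plants. Leaves hold many cell types, so a peak shows that some cells carried the mark and not which.

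G. hirsutum is an allotetraploid. Its nucleus holds an A and a D subgenome, inherited from separate diploid ancestors and represented by 13 chromosomes each, the A chromosomes being the longer ones. H3K4me3, the trimethylated lysine 4 of histone H3, usually marks the start of transcribed genes. H3K27me3 is laid down by Polycomb group proteins and usually covers silenced genes. In large plant genomes genes are dense towards the chromosome ends, and the chromosome middles consist mostly of transposable elements with few genes between them. No gene annotation of the build the authors used was used here, so the peaks are described by position and no gene is named.

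For replicate 2, the deposited names and the sample labels carried opposite marks. The list called the second H3K4me3 list here was deposited under an H3K4me3 name, but its sample is labelled H3K27me3 replicate 2. The list called the second broad list was deposited under an H3K27me3 name, but its sample is labelled H3K4me3 replicate 2. On the 26 chromosomes the second H3K4me3 list held 42643 peaks with a median width of 474 bp, next to 69877 peaks of 495 bp in H3K4me3 replicate 1. The second broad list held 24430 peaks with a median width of 1230.5 bp, next to 20749 peaks of 1379 bp in H3K27me3 replicate 1. Widths thus went with the names and not with the labels. Width also depends on the mode of peak calling, which was broad for H3K27me3 alone. It therefore cannot decide between name and label. Membership below follows the names. Only positions are listed, with no peak heights or reads per peak. Sequencing depth cannot be read from such lists, and library read totals did not enter the analysis.

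The gaps around the members varied widely. The smaller gap of a member was 50066 bp at the lowest, 82812 bp at the median and 972506 bp at the highest. In 523 members it reached 100 kb, in 157 it reached 200 kb and in 17 it reached 500 kb. The larger gap had a median of 171300 bp. Gaps of 50 kb or more are set by the rule and are given as a description.

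The most isolated members lay in the middle of their chromosomes. In the D subgenome the first was on chromosome D03 (21416988 to 21418024, 1037 bp), with 401971 bp to the peak before it and 638517 bp to the peak after it. The second was on D09 (16011724 to 16012140, 417 bp), with 347049 bp and 805708 bp. The third was on D10 (37989003 to 37989469, 467 bp), with 345674 bp and 938191 bp. The smaller gaps of the 3 most isolated A members were larger still. The first was on A03 (53597083 to 53598281, 1199 bp), with 1574953 bp before it and 972506 bp after it. The second was on A11 (39840564 to 39841470, 907 bp), with 853233 bp and 750931 bp. The third was on A05 (52454671 to 52456052, 1382 bp), with 692289 bp and 700024 bp. None of the 6 had H3K27me3 nearby: the nearest H3K27me3 replicate 1 peak was 400418 bp from the D03 peak, the closest case, and 1662407 bp from the A03 peak, the farthest. Positions are 1-based in the authors' build, a published TM-1 genome.

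At the threshold, members and non-members had like gaps. Just inside were a peak of 404 bp on D04 (7645123 to 7645526), with a smaller gap of 50066 bp, and a peak of 2022 bp on A12 (15033343 to 15035364), with 50068 bp. Just outside were a peak of 215 bp on D03 (37965778 to 37965992), with 49994 bp, and a peak of 868 bp on D10 (8637458 to 8638325), with 49992 bp.

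The spacing was also examined in the second H3K4me3 list, which had no part in it. There 1236 of the 1349 members had 50 kb without another peak on both sides (91.6%, exact 95% interval 90.0 to 93.0). Over all 36989 repeated peaks this share was 8.34%, and over the other repeated peaks 1850 of 35640 (5.19%). Of the 956 replicate 1 peaks with the required gaps that were not found again, 882 (92.3%) had such gaps there too. The kept spacing was thus not particular to repeated peaks. The remaining 113 members had a second-list neighbour under 50 kb away. The nearest other second-list peak was at a median of 95344 bp, and 245 members had none within 200 kb. The second list is shorter than the first, so wide gaps are easier to meet in it, and the share is given without a test.

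Peaks with the required gaps were found again somewhat more often than the rest. Of the 2305 peaks with the required gaps in the replicate 1 list, 58.5% reappeared in the second list (interval 56.5 to 60.5), against 52.7% of the 67572 without them (52.4 to 53.1) and 52.9% of all. Repetition is part of the rule, so this is a description too. The 956 isolated peaks that were not found again were narrower, with a median of 466 bp against 716 bp in the members. Of these unrepeated peaks 32.8% overlapped an H3K27me3 replicate 1 peak (29.9 to 35.9), against 2.15% of the members. Neither contrast was particular to isolated peaks. Without the required gaps, 27.6% of unrepeated and 1.69% of repeated peaks overlapped H3K27me3 replicate 1, with median widths of 381 and 609 bp.

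Many members followed one another. While 817 had no member as the next or previous peak of the replicate 1 list, 532 (39.4%) stood in 216 runs of 2 or more consecutive peaks that were all members. The longest run in the D subgenome was on D09 and held 6 peaks over 1.48 Mb (15664284 to 17140923), with widths of 391 to 769 bp. No H3K27me3 peak lay within 50 kb of any of the 6. The longest run in the A subgenome was on A03 and held 7 peaks over 1.59 Mb (39144201 to 40731264), with widths of 330 to 903 bp, and 1 of the 7 had H3K27me3 within 50 kb. Runs of 3 or more numbered 7 on D chromosomes, with 496 members, and 51 on A chromosomes, with 853 members. Each gap is shared by the peaks on either side of it, so a member's neighbour already has the required gap on that side. The rule thus favours runs, and they are given as a description.

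To place the members along the chromosomes, each chromosome was measured as the span between its outermost peaks in the 4 lists and divided into 10 equal parts. The middle section, from 0.25 to 0.75 of the length, held 72.8% of the isolated peaks (exact 95% interval 70.3 to 75.2), against 23.7% of the other repeated peaks (23.2 to 24.1). Peaks with a gap on one side lay between, with 47.9%, and peaks with close neighbours on both sides had 18.1%. Members made up 14.8% of the repeated peaks in the sixth part and 14.7% in the fifth, but 0.317% in the first and 0.349% in the last. The members were fewest at the ends, with 24 and 27 peaks in the outermost parts against 222 and 220 in the middle ones. Because peaks are sparse in chromosome middles, a rule on spacing selects there, and no test was made.

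**Figure D1:**
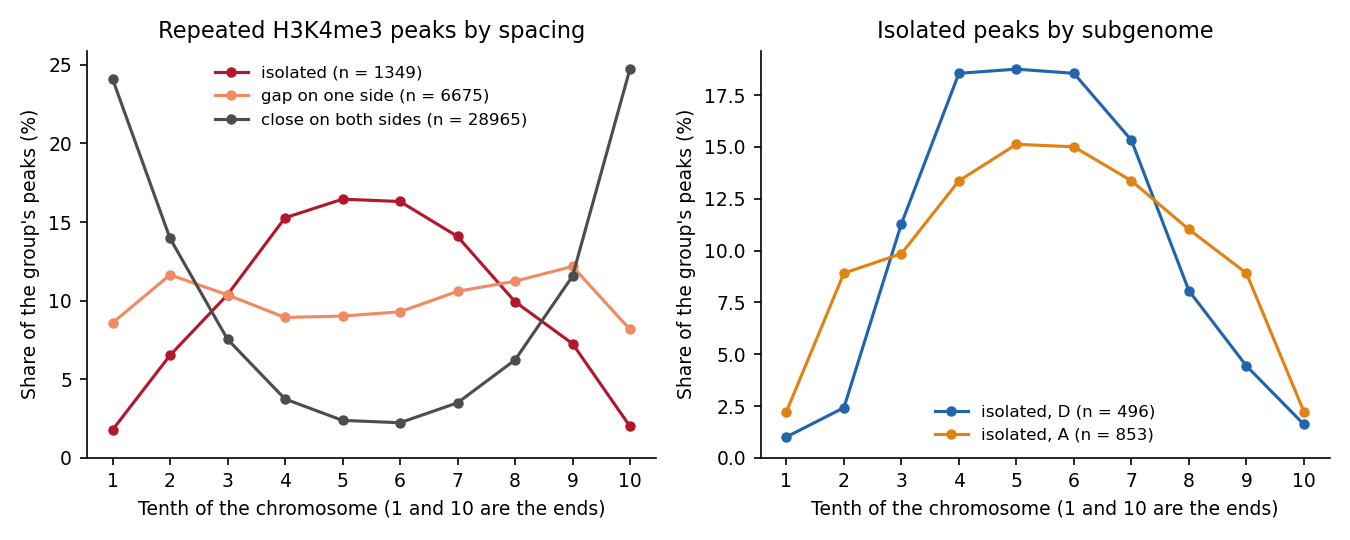
Position of repeated H3K4me3 peaks along the chromosomes. Points give the share of each group's peaks (%) in each of 10 equal parts of the chromosome, pooled over the 26 chromosomes; at left 1349 isolated peaks, 6675 with a gap on one side and 28965 with close neighbours on both sides, at right the 496 isolated D and 853 isolated A peaks. Isolated peaks are most frequent in the middle parts and closely neighboured ones at the ends.

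The concentration in the middle was seen in both subgenomes. Of the isolated D peaks 82.9% lay in the middle section, and of the isolated A peaks 66.9%. The corresponding shares of the other repeated peaks were 28.4% on D and 18.7% on A. The second part from the start held 12 isolated D peaks (2.42%) and 76 isolated A peaks (8.91%), and the ninth part held 22 (4.44%) and 76 (8.91%), so the A members reached further towards the ends.

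Fewer members lay on D than on A chromosomes. The D subgenome had 496 and the A subgenome 853, so that 36.8% were on D (exact 95% interval 34.2 to 39.4). The other repeated peaks were nearly balanced, with 18227 on D and 17413 on A (51.1% on D). Every D chromosome had fewer members than its A partner of the same number, with a mean log2 ratio of D to A of -0.77 ± 0.36 (SD, n = 13 pairs). For the other repeated peaks this ratio was 0.08 ± 0.23, and 9 of 13 pairs had more on D.

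The chromosome pairs ranged from near balance to a wide gap. In pair 13 there were 44 members on D13 and 48 on A13, and in pair 10 there were 29 on D10 and 78 on A10. Chromosomes A03 and A06 had the most members, with 91 each, and D05 the fewest, with 28. The D chromosomes were shorter, with a summed span of 774 Mb against 1160 Mb for the A chromosomes. Per Mb there were 0.641 members on D and 0.735 on A, with a log2 ratio of -0.19 ± 0.29 and 4 of 13 pairs higher on D. The other repeated peaks numbered 23.5 per Mb on D and 15.0 on A (log2 ratio 0.66 ± 0.12, 13 of 13 pairs higher on D). As the rule selects more peaks where peaks are sparser, these values are descriptions.

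**Figure D2:**
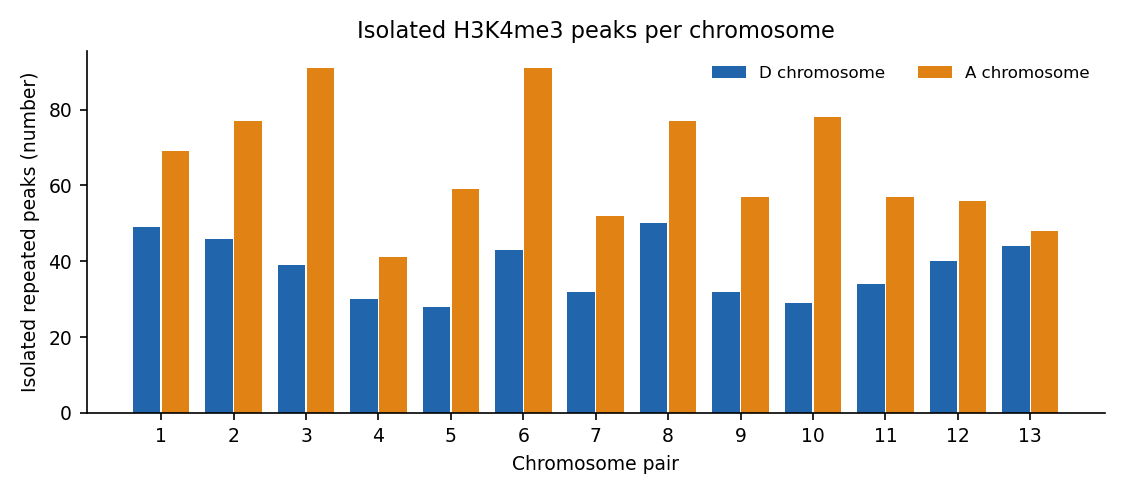
Number of isolated repeated H3K4me3 peaks on each chromosome. Bars stand for single chromosomes, D beside A for each of the 13 pairs; every D bar is lower than its A bar, with the lowest ratio in pair 10 (29 and 78) and the highest in pair 13 (44 and 48).

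Isolated peaks were wider than the other repeated peaks in the replicate 1 list. Their width was 200 bp at the lowest, 716 bp at the median and 2675 bp at the highest (quartiles 519 and 925 bp), against 200, 609 and 3571 bp in the other repeated peaks (quartiles 399 and 847 bp). Peaks of 1000 bp or more made up 19.2% of the members and 13.9% of the others, and peaks under 300 bp 6.89% and 13.2%. The ranges between the quartiles overlapped, and the larger relative contrast was in the share of narrow peaks. The median was larger in the isolated peaks on 24 of 26 chromosomes, the exceptions being D04 (609 against 637.5 bp) and A07 (609 against 634 bp).

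Chromosomes were the unit of the tests, since peaks of one library are not replicates. For each measure the values of the D and the A chromosome were averaged within each of the 13 pairs, and the mean over pairs was tested against 0 by flipping the signs of the pairs in every combination, a two-sided exact permutation test. Its p cannot fall below 0.000244, and p-values were adjusted by the Benjamini-Hochberg method over 9 tests. These p-values describe how steady a difference was from chromosome to chromosome in these libraries, not between plants. No test between libraries was run, as an exact permutation test of 2 against 2 libraries cannot give a p under 0.333.

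The log2 ratio of median widths, isolated over other, was 0.22 ± 0.08 (SD, n = 13 pairs; positive in 13 of 13; adjusted p = 0.000732, exact sign-flip permutation test). With every isolated peak of the replicate 1 list counted, whether repeated or not, and set against all its other peaks, it was 0.35 (adjusted p = 0.000732, same exact test). The size of this difference depended on the peaks it was set against. Against other repeated peaks with 5 kb or more to both neighbours it was 0.07 (adjusted p = 0.0143 by the same exact test), and after peaks under 1 kb apart were merged it was 0.07 (adjusted p = 0.0198). With peaks under 500 bp removed from the replicate 1 list it was 0.01 (adjusted p = 0.765, same exact test). That filter cuts the widths themselves, takes out the narrow peaks in which the groups differed and lets 2566 peaks meet the rule, so this value is not a comparison of the same peaks.

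Width changed with the gap mainly at short gaps. Over all repeated peaks the median was 419 bp where the nearer neighbour was under 0.5 kb away (9019 peaks) and 565 bp at 0.5 to 1 kb (1984 peaks). From 1 to 2 kb onwards it stayed between 668 and 723.5 bp in every class, including the members with gaps of 50 to 100 kb (723.5 bp, 826 peaks), 100 to 200 kb (708.5 bp, 366 peaks) and 200 kb or more (674 bp, 157 peaks). Among the 1349 members, width and smaller gap were hardly related (Spearman's rho -0.04, Pearson's r on log2 values -0.04, across peaks of the same libraries, given as a description).

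In the second H3K4me3 list the difference in width did not pass the test. The widest overlapping second-list peak had a median width of 547 bp for the members and 532 bp for the other repeated peaks. Its log2 ratio was 0.06 ± 0.12 (positive in 9 of 13 pairs; adjusted p = 0.140, exact sign-flip permutation test). The call was not stable: the ratio passed with a required gap of 25 kb (0.068, adjusted p = 0.00879) and with an overlap of 50% of both peaks (0.14, adjusted p = 0.00604), by the same exact test. With the lists exchanged, isolated peaks were chosen by their gaps in the second list. Their second-list width then gave 0.17 (adjusted p = 0.000549, same exact test). The overlapping replicate 1 peaks gave 0.048 (adjusted p = 0.0135, same exact test). The 2 lists ranked the members' widths only loosely (rho 0.39, r 0.38 over 1349 peaks). The share of a replicate 1 peak covered by the second list averaged 74.1% in the members and 75.5% in the others, a difference of -1.26 ± 1.59 percentage points (lower in 9 of 13 pairs; adjusted p = 0.0308, same exact test). This difference was not stable. It lost the threshold without any one of 6 pairs and under 6 of 17 other alternatives. Under 4 more the value was positive: with no repeat required (3.48), an overlap of 50% (0.292), the lists exchanged (1.62) or peaks under 500 bp removed (0.0893). With no repeat required, unrepeated peaks entered with a coverage of 0, so that value also holds the share found again. With the lists exchanged, the value was for second-list peaks covered by replicate 1.

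**Figure D3:**
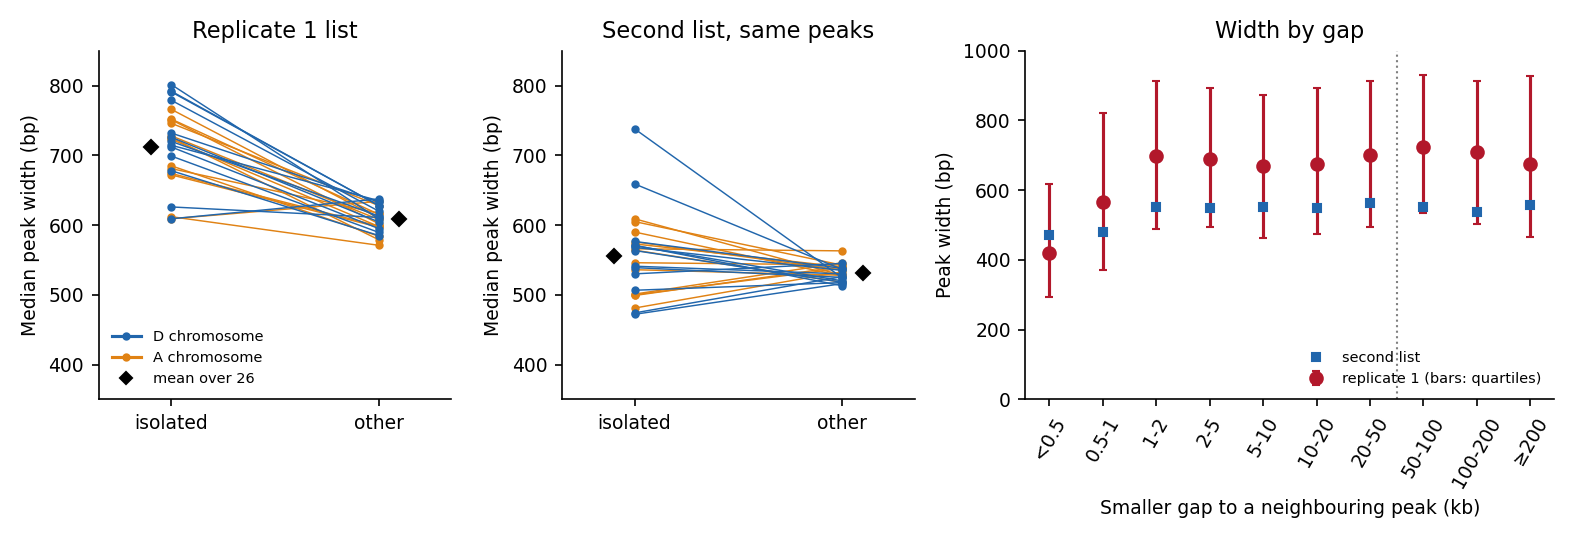
Width of H3K4me3 peaks. Left and middle: median width (bp) of isolated and other repeated peaks on each of the 26 chromosomes (lines join the groups of a chromosome, diamonds give the mean over chromosomes) in the replicate 1 list and in the second H3K4me3 list; right: median width by the smaller gap (kb) in both lists, with quartiles for replicate 1 and a dotted line at 50 kb. The replicate 1 median was larger for isolated peaks on 24 of 26 chromosomes, and beyond 1 kb it varied little with the gap.

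The widest members were not the most isolated ones. In the D subgenome they were a peak of 2079 bp on D10 (43748806 to 43750884), one of 1797 bp on D04 (34858629 to 34860425) and one of 1741 bp on D10 (28664381 to 28666121). In the A subgenome they were a peak of 2675 bp on A07 (64948916 to 64951590), one of 2648 bp on A13 (19295842 to 19298489) and one of 2330 bp on A02 (38130795 to 38133124). The widest second-list peak overlapping each was narrower: 1406, 500 and 738 bp for the D peaks, and 770, 692 and 1844 bp for the A peaks, in the same order. These members were picked as the widest of replicate 1. Over all members, 99 lay on multiple second-list peaks. None of the widest members named above overlapped H3K27me3, although the D04 peak lay 1680 bp from an H3K27me3 replicate 1 peak. The members' widths had medians of 724 bp on D and 707 bp on A. The log2 ratio D over A was 0.04 ± 0.18 (positive in 7 of 13 pairs; adjusted p = 0.460, exact sign-flip permutation test).

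H3K27me3 was much rarer around isolated peaks. An H3K27me3 replicate 1 peak lay within 50 kb of 211 of 1349 members (15.6%, exact 95% interval 13.7 to 17.7), against 22065 of 35640 other repeated peaks (61.9%, 61.4 to 62.4) and 60.2% of all repeated peaks. Within 10 kb the shares were 8.01% and 20.8%, within 100 kb 34.4% and 80.6%, and within 500 kb 80.2% and 98.0%. On single chromosomes the share of members with H3K27me3 within 50 kb ran between 7.69% on D03 and 32.1% on D05, and that of the other repeated peaks between 50.9% on A06 and 76.5% on D05. The groups did not overlap.

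The difference over pairs was -44.0 ± 3.56 percentage points (negative in 13 of 13; adjusted p = 0.000732, exact sign-flip permutation test). The window is as wide as the gap of the rule, which keeps out any stretch of H3K27me3 overlapped by another replicate 1 peak. The p-value is therefore not free of the selection. With only repeated peaks counted as neighbours the difference was -19.2 points. The median distance to the nearest H3K27me3 replicate 1 peak was 174778 bp for the members (quartiles 73238 and 409871 bp) and 33831 bp for the others (12577 and 79343 bp). As a log2 ratio of medians per chromosome it was 2.19 ± 0.37 (positive in 13 of 13; adjusted p = 0.000732, same exact test), smallest in pair 4 (1.08) and largest in pair 5 (2.48). The rule also keeps H3K27me3 under other replicate 1 peaks at a distance, so this p-value is not free of the selection either. From gaps of 10000 bp upwards the distance rose with the smaller gap among repeated peaks. Its median was 38193 bp at 10000 to 20000 bp, 59172.5 bp at 20000 to 50000 bp and 113327 bp at 50000 to 100000 bp. In these classes the share within 50 kb was 57.7%, 45.5% and 18.4%. The second broad list gave a share of 16.6% for the members and 65.0% for the others, and median distances of 169276 and 30131 bp.

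**Figure D4:**
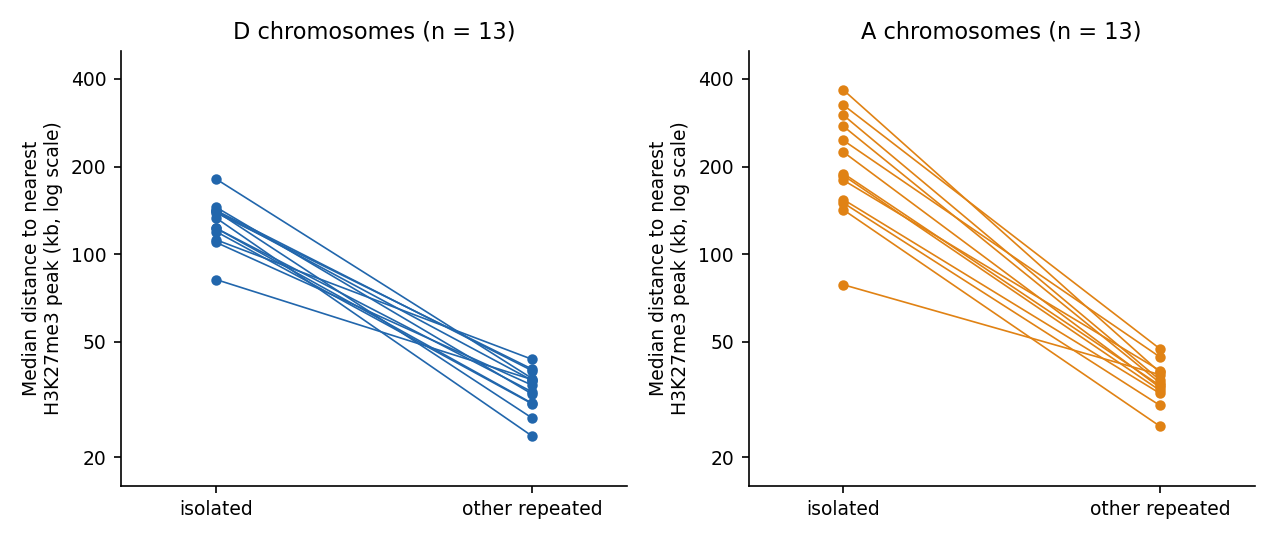
Median distance (kb, log scale) from repeated H3K4me3 peaks to the nearest H3K27me3 replicate 1 peak. Each line joins the isolated and the other repeated peaks of one chromosome, 13 D chromosomes at left and 13 A chromosomes at right; the isolated medians lie between 81.8 and 181 kb on D and between 78.5 and 366 kb on A, above the other repeated peaks on every chromosome.

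Position and the choice of neighbours bore on the size of this difference. In the middle section of the chromosomes 12.2% of the members and 43.8% of the other repeated peaks had H3K27me3 within 50 kb, and in the outer sections 24.8% and 67.5%. The difference over pairs was -26.5 points in the middle section and -37.0 points in the outer sections, and past the threshold in both (adjusted p = 0.00146 and 0.00110, exact sign-flip permutation test). Against repeated peaks with a gap on one side, 39.1% of which had H3K27me3 within 50 kb, it was -22.6 points, and the log2 ratio of distances was 1.15.

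H3K4me3 replicate 1 peaks that were not found again often overlapped H3K27me3. Of its 31932 unrepeated peaks without the required gaps, 27.6% overlapped an H3K27me3 replicate 1 peak, and a member by rule had none of these within 50 kb. When only repeated peaks counted as neighbours, 3321 peaks qualified, the difference was -19.2 points and the log2 ratio of distances 1.12. With no repeat required they were -36.2 points and 2.10. With the roles of the H3K4me3 lists exchanged they were -20.1 points and 1.19. With peaks under 500 bp removed they were -29.3 points and 1.53. All of these passed the threshold (adjusted p at most 0.00110, same exact test). How far the sparse H3K27me3 follows from the rule on H3K4me3 spacing was not tested. Repetition was also taken from the list labelled H3K4me3, which is the second broad list, and 321 peaks qualified. The difference was -1.30 points (adjusted p = 0.169, same exact test) with a log2 ratio of distances of 0 in every pair. Isolated and comparison peaks there all overlapped the second broad list, which was deposited under an H3K27me3 name. Such a set could hardly show a difference in distance to H3K27me3.

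Coverage around the peaks gave the same picture at finer scale. Within 50 kb of the centre, H3K27me3 replicate 1 peaks covered 0.551% of the bases around members, 1.56% around peaks with a gap on one side and 3.91% around peaks with close neighbours on both sides. Within 200 kb these values were 0.891%, 2.01% and 4.41%. The shape differed as well. Around members the coverage in bins of 5 kb was 1.05% and 1.03% in the bins beside the centre, 0.41% in the bin centred 22.5 kb after it and 1.48% at 82.5 kb. Around closely neighboured peaks it was lowest at the centre, 1.74% and 1.76%, and 4.15% at 22.5 kb. The members' profile thus had a small local maximum at the peak inside a trough about as wide as the required gap.

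**Figure D5:**
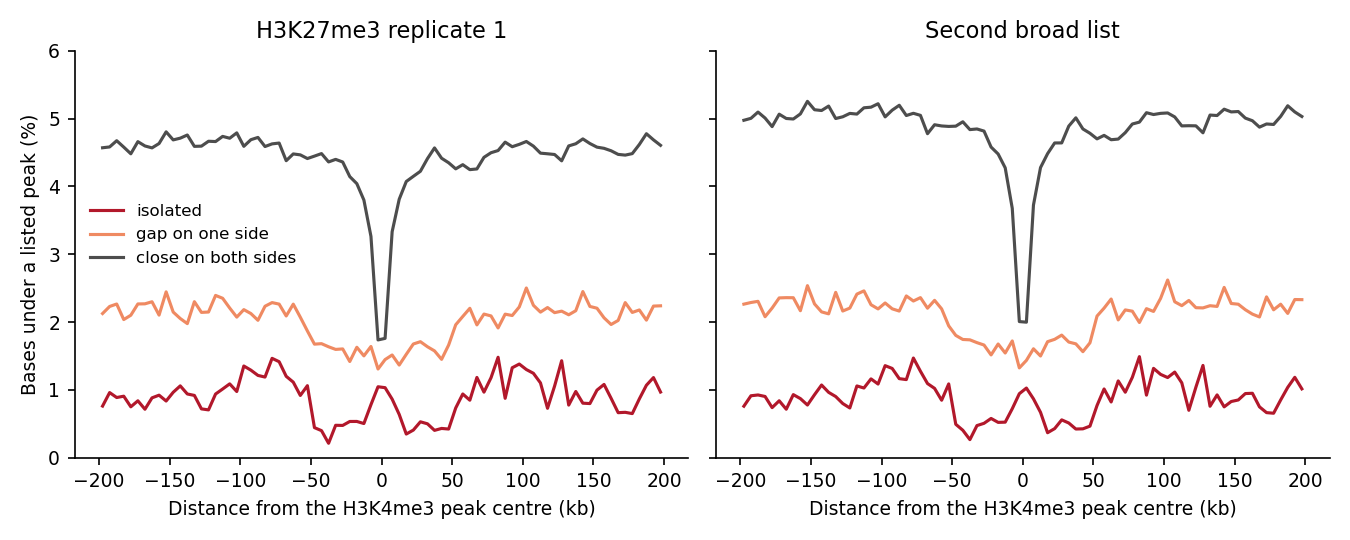
Share of bases (%) under H3K27me3 replicate 1 peaks (left) and second broad list peaks (right) by distance (kb) from the centre of repeated H3K4me3 peaks, in bins of 5 kb. Isolated peaks run lowest throughout, with 1.05% beside the centre, 0.41% at 22.5 kb and 1.48% at 82.5 kb in replicate 1; closely neighboured peaks dip at the centre instead, to 1.74%.

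Direct overlap of both marks was rare in members and in the other repeated peaks. An H3K27me3 replicate 1 peak overlapped 29 members (2.15%, interval 1.44 to 3.07), 604 other repeated peaks (1.69%, 1.56 to 1.83) and 1.71% of all repeated peaks. The difference over pairs was 0.539 ± 1.49 percentage points (positive in 8 of 13; adjusted p = 0.242, exact sign-flip permutation test) and did not pass the threshold. It passed under 3 alternatives that let more peaks qualify: a required gap of 25 kb (0.744, adjusted p = 0.0135), repeated neighbours only (1.98, adjusted p = 0.000549) and the lists exchanged (1.86, adjusted p = 0.000549), by the same exact test. Of the 29 members 21 were also under the second broad list. The median width of the 29 was 1075 bp, and a median of 64.2% of the peak lay under H3K27me3, 5 being covered in full. For the 604 other repeated peaks these values were 731.5 bp and 77.5%, with 152 covered in full. The second broad list overlapped 22 members (1.63%).

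The members with the most bases under H3K27me3 were 2 on each subgenome. On D02 (57524625 to 57526117) 1426 of 1493 bp were covered, and on D08 (34335357 to 34336474) all 1118 bp. On A08 (70103162 to 70105016) 1500 of 1855 bp were covered, and on A11 (76992451 to 76993775) 1211 of 1325 bp. In the second H3K4me3 list the D02, D08 and A11 peaks met only a narrow peak each, of 249, 203 and 223 bp, while the A08 peak met one of 1922 bp. All 4 also overlapped the second broad list, by 1105, 1118, 650 and 1272 bp in the order D02, D08, A08 and A11.

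Isolated D peaks were nearer to H3K27me3 than isolated A peaks. The median distance was 132272 bp for the 496 members on D and 210490 bp for the 853 members on A. Per chromosome it ran between 81758.5 bp (D04) and 181202 bp (D03) on D, and between 78456 bp (A04) and 366358 bp (A08) on A, so that the ranges overlapped. The log2 ratio D over A was -0.65 ± 0.57 (negative in 12 of 13 pairs, pair 4 being the exception; adjusted p = 0.00110, exact sign-flip permutation test). It was -0.46 with a required gap of 100 kb and no longer passed the threshold, with 11 pairs measured. The other repeated peaks had medians of 32904 bp on D and 34652 bp on A. Isolated D peaks also had smaller gaps, with a median smaller gap of 74041 bp on D and 94544 bp on A, and among all members the smaller gap and the H3K27me3 distance rose together (rho 0.35, r 0.21 on log2 values, a description over 1349 peaks). The D chromosomes also had a shorter summed span, 774 Mb against 1160 Mb. The paper counts more H3K27me3 peaks in the D than in the A subgenome. By that count H3K27me3 peaks were denser along the D chromosomes as a whole, not only around isolated peaks. The part of the gaps and of this density in the D to A difference was not tested, either here or for the share given next.

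The share with H3K27me3 within 50 kb pointed the same way, and whether it passed the test depended on the setting. It was 95 of 496 members on D (19.2%, 15.8 to 22.9) and 116 of 853 on A (13.6%, 11.4 to 16.1). The difference D minus A was 5.12 ± 8.37 percentage points (positive in 10 of 13 pairs; adjusted p = 0.0751, exact sign-flip permutation test). It passed under 9 of 16 alternatives, among them the second broad list (5.45, adjusted p = 0.0410) and no repeat required (8.04, adjusted p = 0.0157), and without pair 4 (6.40, adjusted p = 0.0205) or pair 7 (6.21, adjusted p = 0.0378), by the same exact test. Where an H3K27me3 peak did lie within 50 kb, the nearest one had a median width of 1120 bp for the 211 members and 1272 bp for the 22065 other repeated peaks, with no test made.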

How the data were processed

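According to the study's methods and the submitters' processing notes, the authors trimmed reads with fastp, mapped them with Bowtie2 onto a published assembly of TM-1, removed duplicates with Picard and reads with a mapping quality under 30 with samtools, and called peaks with MACS2 without a fragment model at a q-value of 0.01, in broad mode for H3K27me3. Tool versions, and whether input served as control, are not given in the sources used here. The authors deposited 1 list for each antibody library, with chromosome, start and end in bp and no score, p-value or count, and lists were not pooled. Peaks on scaffolds were left out.

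Spacing, overlap and distance were measured edge to edge in Python 3.11.15 with numpy 2.4.6 and pandas 2.3.3, and checked against bedtools 2.31.1. Distance ratios used a pseudocount of 1 bp. Intervals are exact Clopper-Pearson 95% intervals (scipy 1.17.1) for independent peaks, covering counting error alone. Tests ran over 13 chromosome pairs with all 8192 sign patterns, a threshold of 0.05 and Benjamini-Hochberg adjustment over 9 tests, and were tested on simulated data. A chromosome with fewer than 5 isolated peaks was left out of its pair. Figures were drawn with matplotlib 3.10.9.

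The members, the tests and the rule for named regions were chosen with earlier results of these data known. Named were, in each subgenome, the 3 members with the largest smaller gap, the 3 widest, the 2 with the most bases under H3K27me3 replicate 1 and the longest run, then the 2 peaks just inside and the 2 just outside the gap threshold, and the chromosomes and pairs with extreme numbers. Alternatives varied the gap, its measurement, the neighbours, the repeat, width, position, window and H3K27me3 list, and omitted each pair. Merging of peaks and comparison with peaks 5 kb apart were chosen after seeing the data.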

Additional observations from a re-analysis of the deposited data

Results flagged for a closer look

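The excess distance of isolated peaks from H3K27me3 differed between the subgenomes. The log2 ratio of median distances, isolated over other repeated peaks, was 1.91 ± 0.38 on D and 2.48 ± 0.54 on A chromosomes (SD, n = 13 each). The difference D minus A was -0.57 ± 0.57 (positive in 3 of 13 pairs; p = 0.00220, exact two-sided sign-flip permutation test, adjusted p = 0.0132 by Benjamini-Hochberg over 6 such differences). The same difference was -0.80 with the second broad list (adjusted p = 0.00293, same exact test) and ran from -0.62 to -0.48 when single pairs were left out. It was -0.05 among peaks of the middle section (adjusted p = 0.919, same exact test), -0.63 in the outer sections with 9 pairs measured (adjusted p = 0.492) and -0.34 with a gap of 100 kb (adjusted p = 0.823). Against peaks with a gap on one side it was -0.33 (adjusted p = 0.215, same exact test), and against peaks 5 kb apart -0.53 (adjusted p = 0.0703). With the gap also required in the second H3K4me3 list it was -0.51 (adjusted p = 0.0601, same exact test), with an overlap of 50% -0.43 (adjusted p = 0.123) and with repetition in the list labelled H3K4me3 0. It thus kept the call under 9 of 17 alternatives and lost it under 8. Among the 8 was the list labelled H3K4me3, where hardly any difference in distance could appear. The other 5 measures compared in this way had adjusted p-values of at least 0.530. Gap size and position also differed between isolated D and A peaks, and their part in this difference was not tested.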

How the results depend on the processing

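The share of peaks with H3K27me3 within 50 kb and the log2 distance to it kept direction and call under every alternative but repetition in the list labelled H3K4me3 (-1.30 and 0). That setting kept only peaks overlapping the second broad list, in both groups, and could hardly show a difference in H3K27me3 distance. There the width ratio of the overlapping broad-list peaks was -0.31, the D to A ratios of isolated width and distance -0.34 and 0, and 321 peaks qualified. The number of isolated peaks was 3161 with a gap of 25 kb, 523 with 100 kb, 3321 with repeated neighbours only, 2305 with no repeat, 2566 with a 500 bp minimum, 2764 with the lists exchanged and 367 in the outer sections. With 25 kb the second-list width ratio (0.068), H3K27me3 overlap (0.744), D to A width (0.075) and the D minus A share (7.32) passed the threshold, and coverage (-0.96) no longer did. With 100 kb second-list width was -0.0093, and coverage (-1.16) and the D to A distance (-0.46) lost the threshold. The D minus A share passed also with gaps from centre to centre (5.80), repeated neighbours (8.59), a gap also in the second list (5.93), no repeat (8.04), the second broad list (5.45), a 100 kb window (10.2), exchanged lists (9.92) and in the middle section (7.38). H3K27me3 overlap passed with repeated neighbours (1.98) and exchanged lists (1.86) and was -0.0127 against peaks with one gap. Coverage was 3.48 with no repeat, where unrepeated peaks count as 0, and 1.62 with exchanged lists, there for second-list peaks under replicate 1. It was 0.292 with an overlap of 50% and 0.0893 with the 500 bp minimum. No longer past the threshold, it was -1.05 against peaks with one gap, -0.904 in the middle section, -1.06 against peaks 5 kb apart and -1.26 over 26 chromosomes. The replicate 1 width ratio was 0.0057 with the 500 bp minimum. Second-list width passed with an overlap of 50% (0.14) and was -0.0020 against peaks 5 kb apart. With exchanged lists the ratio was 0.17 for second-list widths and 0.048 for the overlapping replicate 1 peaks, both past the threshold. D to A width, there of second-list peaks, was -0.026. D to A distance was -0.77, not past the threshold, in the outer sections. The cause of the other changes was not tested.

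Without single pairs the ranges were 2.17 to 2.28 for distance, -44.6 to -43.5 for the 50 kb share, 0.21 to 0.24 and 0.03 to 0.07 for both widths, -1.48 to -1.09 for coverage, 0.311 to 0.769 for overlap, and for D to A -0.71 to -0.56 (distance), 4.09 to 6.40 (share) and 0.01 to 0.06 (width). A stricter peak threshold was not run, as the lists hold no scores. No paired analysis was possible because no result compares groups of libraries. The lists do not show depth and read totals were not used here, so how depth limits the finding of weak isolated peaks was not tested.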
